A study of Mus musculus with 24 samples.

Results

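The chromatin regions described here are 1727 distal ATAC-seq intervals that the Daxx-WT peak lists of mouse bone marrow placed in LT-HSCs and in GMPs but not in CMPs. They are 3.88% of the 44529 distal intervals among the 65455 intervals of the Daxx-WT LT-HSC list. The members were chosen on the deposited peak calls themselves: each was an LT-HSC interval more than 1000 bp from every annotated transcription start site, it shared at least 1 bp with a GMP interval, and it shared none with a CMP interval. Its presence in those 3 lists is therefore part of the choice and was not tested. ATAC-seq marks open chromatin by the insertions of the transposase Tn5, and distal open regions include many enhancers, the elements through which transcription factors control genes from a distance. LT-HSCs (long-term haematopoietic stem cells) renew themselves and give rise to all blood lineages. CMPs (common myeloid progenitors) can form red cells, platelets and myeloid cells, whereas the GMPs (granulocyte-monocyte progenitors) that arise from them, and also from lymphoid-competent progenitors, are committed to granulocytes and monocytes. An element that is open in the stem cell and in the GMP, and not in the CMP, therefore skips the stage that lies between them in the classical tree.

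The study asked how loss of Daxx, a chaperone that deposits the histone variant H3.3, changes blood formation, and whether the additional loss of Pu.1, a transcription factor of myeloid and B cells, modifies the outcome. All groups were C57BL/6 bone marrow cells, and all of them, Daxx-WT controls included, carried 1 copy of a Cre transgene (Cre +/-). Daxx-WT mice were Daxx +/+, Daxx-KO mice Daxx F/F, and DKO mice Daxx F/F Pu.1 F/F. LT-HSCs, CMPs and GMPs of both Daxx genotypes (2 libraries each) carry no time in their labels. By the study's methods, they came from mice whose tamoxifen-inducible Cre is expressed from the ubiquitous Rosa26 locus, at 3 w.p.i. (weeks post induction), so that non-blood cells lost Daxx as well. A further set of LT-HSCs was collected 3 days post induction (3 d.p.i.), with 3 libraries from Daxx-KO and 2 from Daxx-WT mice. The methods name the same tamoxifen-inducible line for them. A legend of the study counts Daxx +/F mice among these controls, whereas the labels give Daxx +/+. KLS cells (c-Kit+ Lin- Sca-1+, a mixture of stem cells and multipotent progenitors) came from the 3 w.p.i. time point, with 3 libraries for Daxx-KO and 2 each for Daxx-WT and DKO. For DKO mice the methods give the Mx1Cre line, which was activated by pI:pC, a double-stranded RNA mimic that itself induces interferon. The Cre line of the Daxx-KO and Daxx-WT KLS libraries is not given in the sources used here. Mice of both sexes were used, and the sex behind each library was not analysed here.

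Each of the 11 groups had 1 peak list, so a list has no spread between mice, and presence in a list is given without an error. The lists held between 22156 intervals in DKO KLS cells and 70455 in Daxx-KO LT-HSCs, with 65455, 66070 and 65306 in the Daxx-WT LT-HSC, CMP and GMP lists. CMP and GMP libraries received a further sequencing run that was not reported for LT-HSCs. The depth behind these lists is unknown, and its part in what was called in each population was not tested. The start sites of marker genes were checked against the cell labels. Of 8 granulocyte-monocyte genes, all had an interval within 1000 bp of a start site in the Daxx-WT GMP list, 7 in the CMP list, and 4 in the LT-HSC list, where Elane, Ctsg, Ms4a3 and Cebpe had none. The LT-HSC list held 7 of 8 stem cell genes (all but Ly6a, which had none in any list), but the CMP list held 7 and the GMP list 6 of them. Of 8 genes of CMPs and the megakaryocyte-erythroid lineage, the LT-HSC list held 7 (not Gata1) and the CMP and GMP lists all 8, so these genes did not separate the populations. The LT-HSC list held 3 of 8 genes of mature lymphocytes, with none at Cd3e, Cd79a, Ms4a1, Cd8a or Cd4.

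To show what such elements look like, 1 member is printed for each of the myeloid, megakaryocyte-erythroid and stem cell gene lists (the one found in the most other peak lists whose centre was free of exons), followed by a member listed as higher in all 3 tables of mutant cells. Each line gives 300 bases of the GRCm38 reference, forward strand, around the centre of the member, in lower case, with capitals for matches to any of the 8 motifs searched.
Lyz2, chr10:117274329-117274628: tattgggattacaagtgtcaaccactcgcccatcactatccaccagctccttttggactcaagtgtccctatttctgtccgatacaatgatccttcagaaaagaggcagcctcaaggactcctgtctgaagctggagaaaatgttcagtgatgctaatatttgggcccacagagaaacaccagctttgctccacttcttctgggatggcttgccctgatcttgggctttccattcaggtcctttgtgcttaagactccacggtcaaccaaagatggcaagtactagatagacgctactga
Zfpm1, chr8:122296572-122296871: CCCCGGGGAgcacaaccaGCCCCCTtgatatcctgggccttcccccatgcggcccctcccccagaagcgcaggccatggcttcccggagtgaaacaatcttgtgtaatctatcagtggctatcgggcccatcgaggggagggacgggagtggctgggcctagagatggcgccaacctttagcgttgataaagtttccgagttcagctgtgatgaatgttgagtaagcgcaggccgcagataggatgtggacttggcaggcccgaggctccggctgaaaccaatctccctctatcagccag
Fgd5, chr6:91972373-91972672: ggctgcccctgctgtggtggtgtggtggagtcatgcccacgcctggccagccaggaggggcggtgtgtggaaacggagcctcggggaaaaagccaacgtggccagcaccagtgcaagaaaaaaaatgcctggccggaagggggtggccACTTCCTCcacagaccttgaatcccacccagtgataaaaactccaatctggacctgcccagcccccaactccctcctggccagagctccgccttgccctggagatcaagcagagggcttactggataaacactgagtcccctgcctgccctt
Msrb3, chr10:120775373-120775672: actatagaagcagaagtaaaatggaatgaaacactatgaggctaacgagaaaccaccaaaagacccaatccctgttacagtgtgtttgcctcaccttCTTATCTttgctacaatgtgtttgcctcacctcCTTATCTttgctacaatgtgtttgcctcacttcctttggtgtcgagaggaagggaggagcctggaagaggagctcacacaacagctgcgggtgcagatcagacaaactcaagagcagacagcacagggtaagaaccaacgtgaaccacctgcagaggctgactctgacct
The Fgd5 window holds 1 Pu.1 match close to its centre. The Zfpm1 window holds 1 EBF and 1 CTCF match at its left edge. The Msrb3 window holds 2 GATA matches. No motif was matched in the window near Lyz2, which encodes the lysozyme of macrophages and granulocytes.

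The members were narrow. Their median width was 683 bp, against 801 bp for the 6276 distal LT-HSC intervals shared with CMPs and not GMPs (the mirror class), 847 bp for the 22964 shared with both progenitors and 697 bp for the 13562 found in neither. The median distance from the centre to the nearest start site of a protein-coding gene was 15247 bp, close to the 15366 bp of the intervals shared with both progenitors, whereas it was 21520 bp in the mirror class. The overlapping GMP interval had a median width of 440 bp, compared with 595 bp for the intervals shared with both progenitors. By annotation, 943 members (54.6%) were centred in an intron, 98 (5.67%) in an exon and 686 (39.7%) between genes, and the shares over all distal intervals were 51.8%, 5.43% and 42.7%. Soft-masked repeats covered most of the sequence of 94 members (5.44%), compared with 3.44% of all distal intervals. Members made up between 3.10% of the distal intervals of chromosome 15 and 5.11% of those of the X chromosome, and 2 of 26 on the Y chromosome.

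The nearest CMP interval was usually far away. Its gap to a member had a median of 4964 bp and a lowest value of 37 bp. For 121 members (7.01%) it was at most 500 bp. The GMP interval covered a median of 66.0% of the member, and 8 members were covered by less than 50 bp. At the distance threshold, 82 members had a start site at most 500 bp beyond it, and 87.8% of these were also in the Daxx-KO LT-HSC list. The 101 intervals left out for a start site less than 500 bp inside it were in that list in 87.1% of cases. A single distal interval was left out for a CMP overlap of less than 50 bp.

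Presence in the 8 peak lists that the choice did not use was highest in Daxx-KO LT-HSCs, with 88.5% of members (1529 of 1727), against 91.3% of all distal LT-HSC intervals. The second set of LT-HSCs, at 3 d.p.i., held far fewer: 24.4% of members in Daxx-WT and 33.7% in Daxx-KO cells, where all distal intervals gave 44.0% and 54.7%. KLS cells at 3 w.p.i. held 20.6% of members in Daxx-WT, 35.1% in Daxx-KO and 7.82% in DKO cells. All distal intervals gave 38.7%, 54.6% and 14.9% there. By their labels, the 3 d.p.i. LT-HSC and KLS lists hold peaks passed by a reproducibility filter (IDR). The other lists carry no such label. By the methods, these sets of libraries also differed in the number of sorted cells, the library preparation and the sequencer. The part of these differences in the lower shares was not tested. The Daxx-KO lists were longer than their Daxx-WT counterparts in both populations (44326 against 36949 intervals in LT-HSCs, and 44694 against 33325 in KLS cells). In every list, members lay between the intervals found in neither progenitor and those found in both. The intervals found in both progenitors were present in 63.7% (Daxx-WT LT-HSCs at 3 d.p.i.) and 58.5% (Daxx-WT KLS).

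**Figure D1:**
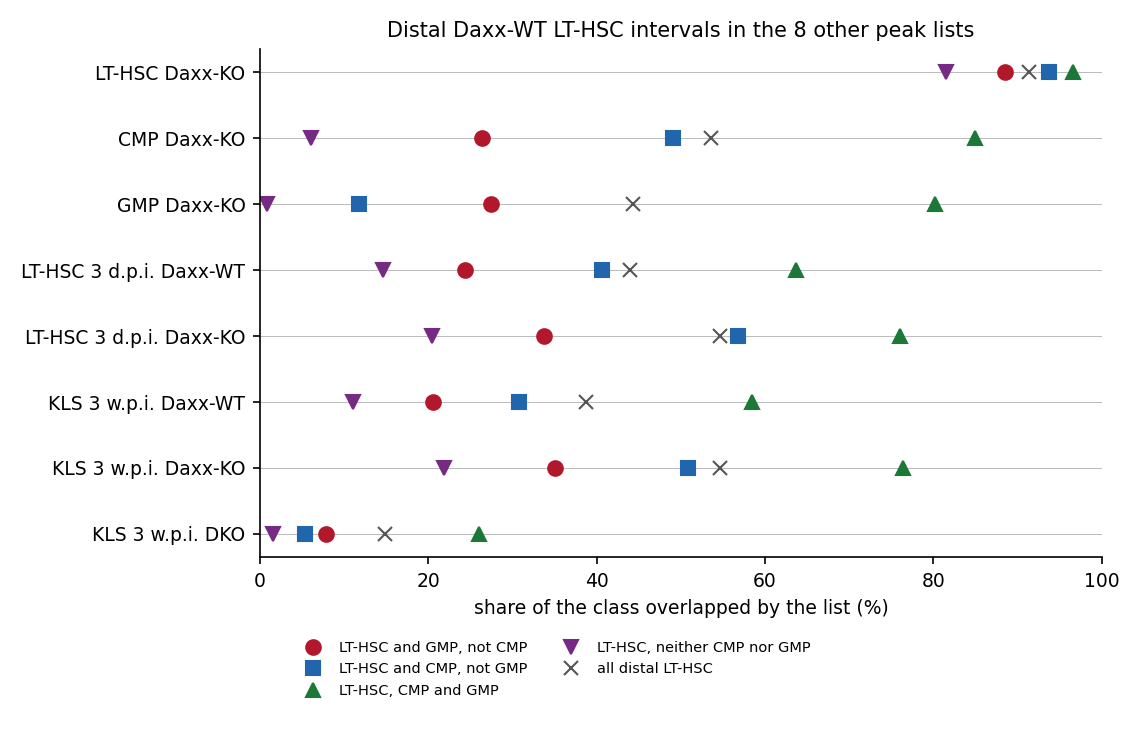
Share of each class of distal Daxx-WT LT-HSC interval (horizontal axis, in %) that was overlapped by each of the 8 other peak lists (vertical axis). Each symbol is 1 class in 1 list without replicates. Members (circles) range from 7.82% in DKO KLS cells to 88.5% in Daxx-KO LT-HSCs. They lie above the mirror class (squares) in GMP Daxx-KO and DKO KLS cells alone. The 3 d.p.i. and KLS lists are labelled as filtered for reproducibility, and the other lists are not.

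The choice of members did not use the Daxx-KO progenitor lists. The Daxx-KO GMP list overlapped 473 members (27.4%), whereas it overlapped 44.3% of all distal intervals and 80.2% of those that Daxx-WT LT-HSCs shared with both progenitors. The Daxx-KO CMP list, which by the choice of members started from none in Daxx-WT, overlapped 456 (26.4%), against 53.6% of all distal intervals and 84.9% of those shared with both. Both lists were shorter than the Daxx-WT lists, with 49677 and 50590 intervals. Taken jointly, 286 members were in the GMP list alone, 269 in the CMP list alone, 187 in both and 985 in neither. In the mirror class the corresponding counts were 203, 2550, 529 and 2994 of 6276.

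DKO KLS cells were the one KLS or 3 d.p.i. list in which members were more frequent than the mirror class, with 135 members (7.82%) against 333 of 6276 (5.31%). Both were below all distal intervals (14.9%) and those shared with both progenitors (26.0%). The order was the same in each of 4 width classes cut at the quartiles of all distal intervals: 4.47% against 1.61% in the narrowest, then 5.65% against 3.55%, 11.7% against 6.36%, and 13.8% against 9.35% in the widest. In Daxx-WT KLS cells members were less frequent than the mirror class in all 4 width classes (7.66% against 9.07% in the narrowest and 38.1% against 52.9% in the widest). Of the 135 members in the DKO list, 54.8% were also in the Daxx-KO GMP list, compared with 25.1% of the other 1592. They were more frequent in the other lists as well, with 51.1% against 18% in Daxx-WT KLS and 60% against 33% in Daxx-KO KLS cells. They were also wider, with a median of 837 bp against 670 bp. This split was not made over all distal intervals. The deposited fold enrichment of the overlapping peaks had a median of 4.27 for members in the DKO list and 3.73 for the mirror class. In the Daxx-WT KLS list it was 4.49 and 5.07.

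Counted together, 101 members (5.85%) were in none of the 8 lists, 435 (25.2%) in 1, and 133 (7.70%) in 6 or more. Over all distal intervals, 5.75% were in none, 18.2% in 1 and 33.3% in 6 or more. All 8 lists held 5 members (0.290%), against 9.69% of all distal intervals. These 5 members lay near Ggh, Ppp1r16b, Fgd5, Sh3tc2 and Tmem267. The member nearest Ggh, which encodes a folate-cleaving hydrolase, was 320 bp wide in an intron of Nkain3 on chromosome 4 at 20191736 to 20192055, and had the highest fold enrichment of these 5 in the 3 d.p.i. Daxx-WT LT-HSC list (17.8) and the DKO list (13.6). Its nearest CMP interval was 69032 bp away, and repeats made up 45.9% of its sequence. The member nearest Ppp1r16b was 1041 bp wide between genes on chromosome 2 at 158658674 to 158659714, with fold enrichments of 8.80 and 4.76 in these lists. The member nearest Fgd5, a marker gene of LT-HSCs, was 1472 bp wide on chromosome 6 at 91971787 to 91973258, 6355 bp from the start of the gene, with fold enrichments of 7.71 and 5.57. The members nearest Sh3tc2 and Tmem267 (chromosome 13, 119596380 to 119597132) had values of 6.00 and 3.19 in Daxx-WT LT-HSCs at 3 d.p.i. The latter was 60.2% repeat. The next 5 members by this order were each in 7 lists and lay nearest Cd200, Coro2b, Efna5, Afp and Cnbp. The one nearest Cd200, whose product restrains myeloid cells through an inhibitory receptor, reached the highest fold enrichments among these 10 members, 19.8 in Daxx-WT and 22.5 in Daxx-KO LT-HSCs at 3 d.p.i., and was absent from the DKO list.

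**Figure D2:**
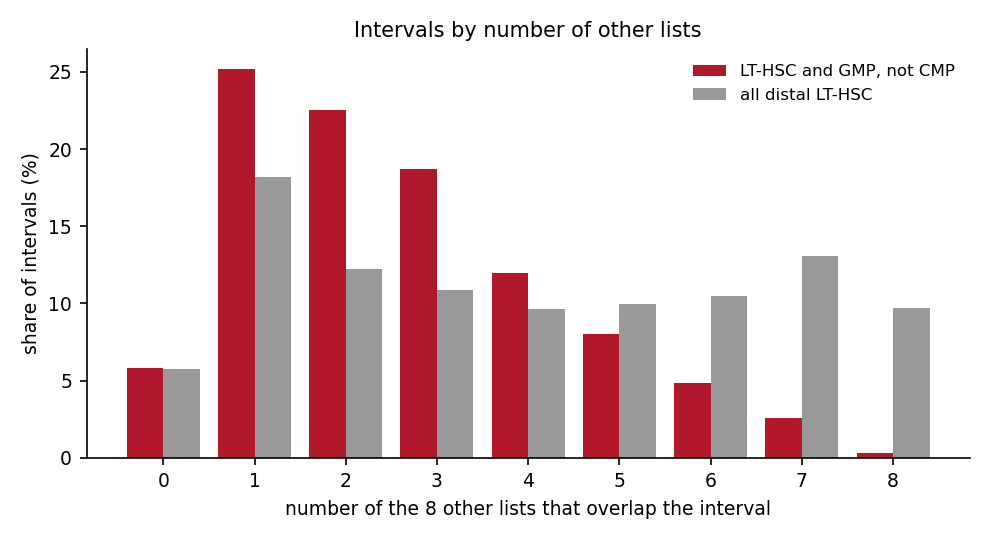
Share of intervals (vertical axis, in %) by the number of the 8 other lists that overlapped them (horizontal axis), for members and for all 44529 distal LT-HSC intervals. Members gather at 1 to 3 lists, with 5 of them in all 8, whereas 9.69% of all distal intervals were in all 8.

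The members were spread thinly over genes. Their nearest protein-coding genes numbered 1534, of which 1368 were nearest to 1 member each. The gene with the most members was Tnks, which encodes the poly-ADP-ribosyltransferase tankyrase, with 5 of its 16 distal LT-HSC intervals. Cdk6, a kinase of the G1 phase that also controls the exit of stem cells from quiescence, had 4 of 17. Jarid2, an accessory subunit of the Polycomb complex PRC2, and Prkce, a protein kinase C, had 4 of 29 each. At Cdk6, 2 members were neighbours in an intron on chromosome 5 (3460650 to 3461377 and 3461486 to 3461826), and the wider of them was in 7 of the 8 other lists. The remaining genes of the leading 10 (Celf2, Chd7, Depdc1b, Igf1r, Katnal1 and Ldhal6b) had 3 members each. For the last of these, 2 of the 3 members were in introns of Arid1b, a subunit of the BAF chromatin remodeller.

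Genes of the myeloid lineage were near few members, though at shares above those of all distal intervals. Of 60 genes of granulocytes and monocytes, 9 were nearest to 10 members in all (0.579%). The share was 0.463% of all distal intervals and 0.540% of those shared with both progenitors. By the nearest gene of any biotype they had 8 members (0.463%, against 0.220%). Irf8, the regulator of monocyte fate, had 2 members, at 14546 bp and 16555 bp from its start. The nearer was in none of the 8 other lists, and the farther was in the Daxx-KO LT-HSC and GMP lists. The member near Lyz2 was the single distal LT-HSC interval of that gene, was in 5 lists and was absent from the Daxx-KO CMP, Daxx-KO GMP and DKO KLS lists. Anxa1 (annexin A1), Cebpd, a C/EBP factor of myeloid cells, and Csf1r, the M-CSF receptor, had 1 each. The ones assigned to Cebpd and Csf1r lay inside the neighbouring genes Spidr and Pdgfrb, so the nearest start site need not be that of the regulated gene. Fpr2, Ifngr1, Ltf and Padi4 had 1 each as well.

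Of 92 lymphoid genes, 13 were nearest to 19 members (1.10%), against 1.31% of all distal intervals. Prdm1, which encodes the plasma cell regulator Blimp-1, had 3 of its 17 distal intervals. Ccr7, a receptor that guides lymphocytes and dendritic cells into lymph nodes, had 2 of 9, of which the one at chromosome 11, 99162683 to 99163539, was in 7 lists. Foxp1, a factor of early B cells, had 2 of 35, both in its introns, and 1 of them was in 7 lists. Syk, a kinase of antigen receptor signalling, had 2 of 16, and Bach2, a repressor in B and T cells, 2 of 28. With 8 members near 7 of 59 megakaryocyte and erythroid genes (0.463% against 0.472%), that list stood close to the level of all distal intervals, and the mirror class had 0.669%. Its genes were Gypc with 2 members and Zfpm1, Add2, Ank1, Fli1, Sptb and Vwf with 1 each. Dendritic cell, mast cell, basophil and eosinophil genes had 2 members, near Clec10a and Il5ra (0.116% against 0.130%).

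Stem cell genes were near fewer members than their share of all distal intervals. Of 54 such genes, 5 were nearest to 7 members (0.405%), whereas the share was 0.822% over all distal intervals, 71 of 6276 in the mirror class, 1.21% in intervals found in neither progenitor and 0.540% in those found in both. By the nearest gene of any biotype the shares were 0.174% of members and 0.389% of all distal intervals. The 7 members lay near Mecom (2 of its 35 distal intervals), Ly6a (both of its 2), Fgd5, Kit and Meis2. Mecom encodes Evi1, a factor that stem cells need, and Ly6a encodes the surface protein Sca-1 used in the sort. With all genes that have a start site within 100 kb counted in place of the nearest gene, stem cell genes had 11 members (0.637%, against 1.35% of the mirror class) and myeloid genes 25 (1.45%, against 1.01% of all distal intervals). These counts are small, and no list was tested.

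Sequence motifs set members apart from the mirror class at GATA above all. The motifs were searched within 150 bp of the centre, on both strands: GAGGAAGT for Pu.1, AGATAAG for GATA factors, TGTGGTT for Runx, TTGCNNAA for C/EBP, TGANTCA for AP-1, GAAANNGAA for IRF, CCCNNGGGA for EBF and AGGGGGC for CTCF. GATA factors drive the erythroid, megakaryocyte and mast cell programmes. The GATA motif was in 61 members (3.53%), in 561 mirror intervals (8.94%) in 5.73% of all distal intervals and in 4.42% of those shared with both progenitors. In the narrowest width class the shares were 2.55% and 5.91%, and in the widest 4.50% and 10.8%. Runx was also less frequent in members (10.6%) than in the mirror class (14.1%) or all distal intervals (12.4%). Pu.1 was in 140 members (8.11%), 6.09% of the mirror class and 7.80% of all distal intervals, and the intervals shared with both progenitors had the highest share (9.27%). C/EBP, whose factors direct granulocyte formation, was in 13.3% of members, 11.8% of the mirror class and 12.8% of all distal intervals. The shares in members for AP-1 (12.3%), IRF (12.9%), EBF (5.04%) and CTCF (9.84%) were within 1.5 percentage points of those of all distal intervals. A match describes letters in a window and not the binding of a factor.

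**Figure D3:**
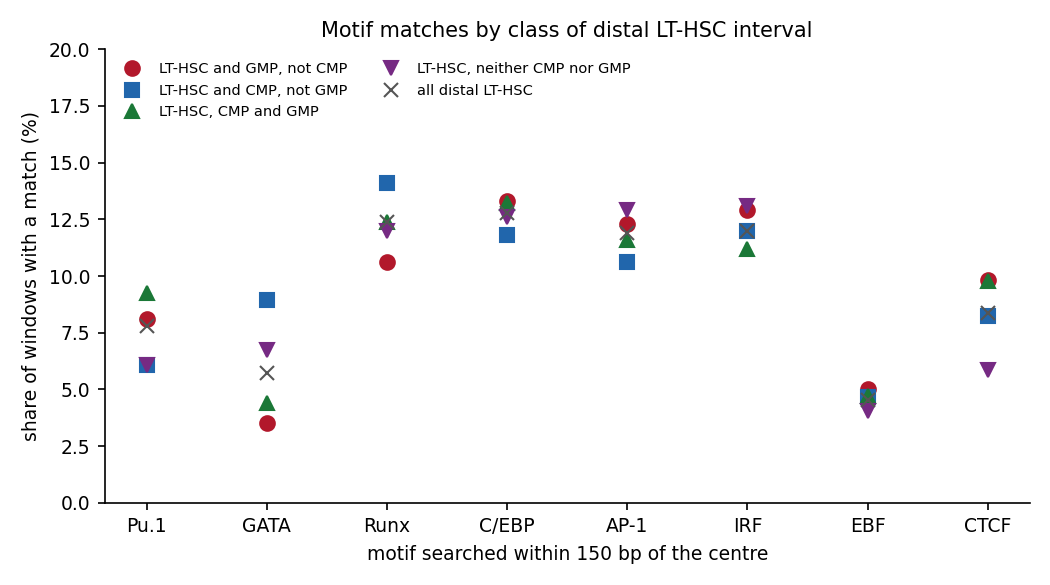
Share of windows with at least 1 match to each of 8 motifs (vertical axis, in %) within 150 bp of the interval centre, for each class of distal LT-HSC interval. Members (circles) have the lowest GATA share, 3.53%, and the mirror class (squares) the highest, 8.94%.

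The deposited tables of changed sites hold windows of at least 600 bp that the authors selected by a negative binomial test, with scaled reads (reads divided by a constant for each library) in every library. In all, 473 members (27.4%) overlapped a site of at least 1 table. The same share was not counted over all distal intervals, of which sites lower in DKO cells alone overlapped 19.7%. Whether a site was higher or lower was read from the mean scaled reads. Because the sites were selected on these same libraries, the limma tests given here are no independent evidence, and a call is an adjusted p-value below 0.05 over all windows that the authors tested. The tables for Daxx-KO and DKO KLS cells used the same 2 Daxx-WT libraries.

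In DKO KLS cells, 134 members (7.76%) overlapped a site higher than in Daxx-WT, against a background of 3.80% of all distal LT-HSC intervals and 2.17% of the mirror class. Sites lower in DKO cells overlapped 226 members (13.1%), against a background of 19.7% and 20.7% of the mirror class. Members were thus the class with the largest share at higher sites, while for lower sites they were below all distal intervals. These members lay at 138 higher and 226 lower sites. The higher sites at members had medians of 88.3 scaled reads in DKO and 40.1 in Daxx-WT cells, and the lower sites 30.8 and 67.5. At all 138 and all 226 of these sites the DKO and Daxx-WT libraries did not overlap. The sites were selected on these libraries, and the same count over all listed sites was not made. By limma with Benjamini-Hochberg adjustment, 95 of the 138 higher sites at members rose (68.8%, against 93.2% of all higher sites of the table), and 160 of the 226 lower sites fell (70.8%, against 53.6% of all lower sites).

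These calls depend on the scaling and on single libraries. After the authors' scaling, the DKO libraries averaged 10.6 and 15 reads per window and the Daxx-WT libraries 7.39 and 8.19. With equal means imposed, which lowered the log2 differences of all sites by a median of 0.67, 0 higher sites at members and 226 lower sites were called, and 1 site at a member changed direction. Without DKO library 1 or without DKO library 2 the limma calls went to 0 in both directions, and without Daxx-WT library 1 they were 33 higher and 83 lower. Leaving out a DKO library left that group with 1 library, and the log2 differences of the sites at Spi1 and Prss2, described next, were then -2.94 and -3.80 (from -3.37) and 1.74 and 1.96 (from 1.85).

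The largest rise in DKO cells was at an intergenic member, chromosome 10, 37314851 to 37315501, 176256 bp from the start of Marcks, which encodes a substrate of protein kinase C at the plasma membrane. Its site had 171.8 and 103.99 scaled reads in DKO against 52.4 and 19.7 in Daxx-WT cells, a log2 difference of 2.02 ± 0.36 (SE) with a limma adjusted p of 3.25e-06. All 4 DKO and Daxx-WT values were separate, although the Daxx-WT libraries differed from each other by more than 2-fold. The SE was 0.36 at every DKO site given here, also where libraries agreed more closely. It is a spread pooled over the listed sites and does not measure that of 1 site. This member was in 7 lists, the DKO list included. The site near Sept5, a septin gene, on chromosome 16 at 18654351 to 18655700 had 238.6 and 164.0 scaled reads in DKO and 35.5 and 81.2 in Daxx-WT libraries (log2 difference 1.86 ± 0.36, limma adjusted p 2.10e-05). The site near Prss2, a trypsinogen gene, on chromosome 6 at 41526001 to 41527350 had 124.1 and 105.9 against 29.3 and 32.9 (1.85 ± 0.36, limma adjusted p 2.33e-05). With equal means imposed, the log2 differences of these sites were 1.34, 1.17 and 1.17, with none of the 3 called.

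The lowest member in DKO cells was in Spi1 itself, the gene of Pu.1 that these cells lack. The member, on chromosome 2 at 91115062 to 91115341, lay in an exon of Spi1, and its nearest start site was that of Mybpc3, 2942 bp away. The site over it had 2.12 and 4.68 scaled reads in DKO against 31.1 and 58.1 in Daxx-WT cells (log2 difference -3.37 ± 0.36, limma adjusted p 1.35e-16). Which exons were floxed is not given in the sources used here, and fewer reads from removed DNA and less accessible DNA cannot be told apart. The second site was in an intron of Mndal, an interferon-inducible gene of the Ifi200 family, on chromosome 1 at 173886951 to 173887700, with 4.24 and 6.56 against 20.4 and 34.0 scaled reads (-2.12 ± 0.36, limma adjusted p 8.86e-07).

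The shares with a Pu.1 motif or in a KLS list are given for members at higher and lower DKO sites beside those of all distal intervals at such sites. The Pu.1 motif was in 4 of the 134 members at higher sites (2.99%) and in 24 of the 226 at lower sites (10.6%), where all distal intervals gave 5.74% and 12.7%. The GATA motif was in 5 members at higher sites (3.73%) and 9 at lower sites (3.98%), against 3.96% and 7.18% of all distal intervals. The Daxx-KO GMP list was not counted over all distal intervals at such sites. It held 67 of the 134 members at higher sites and 52 of those at lower sites (23.0%). The Daxx-WT KLS list held 32 of the former (23.9%) and 116 of the latter (51.3%), and the DKO list 66 (49.3%) and 1 (0.442%). For all distal intervals at such sites the shares were 39.4% and 72.9% in the Daxx-WT list and 51.0% and 10.8% in the DKO list. The KLS lists and these sites come from the same libraries. Among the gene lists, the members near Irf8, Lyz2, Cebpd, Mecom, Fgd5 and Clec10a had sites that fell in DKO cells by limma, and one near Ly6a had a site that rose. The site near Irf8 had 15.9 and 13.1 scaled reads in DKO and 49.7 and 29.6 in Daxx-WT libraries (log2 difference -1.35 ± 0.36, limma adjusted p 0.00302). At Mecom the values were 8.48 and 11.2 against 24.9 and 32.9 (-1.46 ± 0.36, limma adjusted p 0.00114), and at Ly6a 210.0 and 133.0 against 57.7 and 65.8 (1.43 ± 0.36, limma adjusted p 0.00154).

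**Figure D4:**
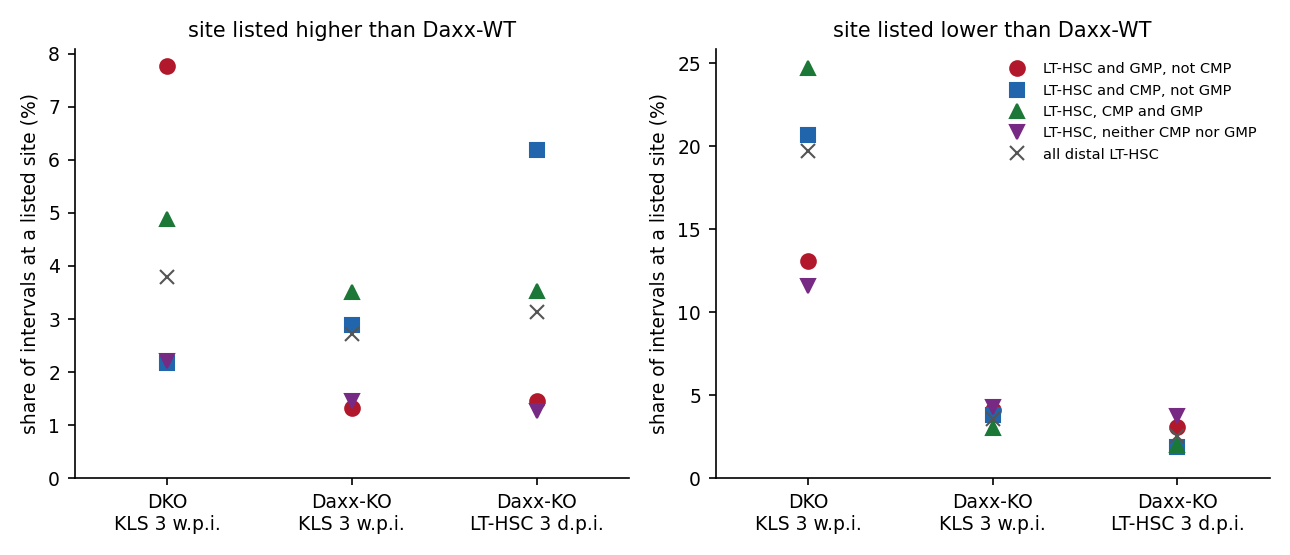
Share of each class of distal LT-HSC interval (vertical axes, in %, with a different scale in each panel) at a site listed higher (left) or lower (right) than Daxx-WT in each of the 3 tables. Members (circles) have the largest share at sites higher in DKO KLS cells, 7.76%, and lie below all distal intervals (crosses) at sites higher in both Daxx-KO comparisons.

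For loss of Daxx alone, members were below all distal intervals at higher sites and slightly above them at lower sites. In Daxx-KO KLS cells, 23 members (1.33%) overlapped a higher site, against a background of 2.71%, and 71 (4.11%) a lower site, against a background of 3.54%. In 3 d.p.i. Daxx-KO LT-HSCs the counts were 25 (1.45%, against a background of 3.13% and 6.18% of the mirror class) and 53 (3.07%, against a background of 2.55%). Intervals found in neither progenitor had similar shares, with 1.45% higher and 4.28% lower in KLS cells, and 1.26% and 3.73% in LT-HSCs. The limma test called none of these sites at members and 0% of all listed sites in either direction. At an unadjusted p below 0.05, all 23 higher sites and 69 of 73 lower sites in KLS cells, and all 25 higher and 53 of 54 lower sites in LT-HSCs, passed. The lowest adjusted p-values by limma were 0.284 and 0.301. The groups did not overlap at any of the KLS sites at members nor at the higher LT-HSC sites, and at 52 of the 54 lower LT-HSC sites. Neither these counts nor those at an unadjusted p were made over all listed sites, which were selected on these libraries. One of the 3 Daxx-KO libraries was the shallowest of each table, with 4.54 reads per window in KLS cells and 4.21 in LT-HSCs. After the authors' scaling, the Daxx-KO KLS libraries averaged 9.03, 3.98 and 5.27 reads per window, against 7.6 and 8.61 for Daxx-WT. In LT-HSCs the averages were 8.71, 4.01 and 10.1 against 10.8 and 7.41. Relative to equal means, this scaling shifted the log2 differences by a median of -0.47 in KLS cells and -0.33 in LT-HSCs. In DKO cells the shift was 0.67. Its part in the balance of higher and lower sites was not tested.

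The member nearest Msrb3, on chromosome 10 at 120775316 to 120775729, had the largest differences among the 3 members that were listed in a single direction in all 3 tables. It lay in an intron of a noncoding gene, 74945 bp from the start of Msrb3, which encodes a methionine sulfoxide reductase, and it was in 7 lists. In KLS cells its site had 118.0, 114.6 and 120.4 scaled reads with Daxx deleted against 35.6 and 34.4 in Daxx-WT cells (log2 difference 1.72 ± 0.28, limma adjusted p 0.284). In 3 d.p.i. LT-HSCs it had 181.7, 179.4 and 175.2 against 77.8 and 42.2 (1.62 ± 0.29, limma adjusted p 0.301). In DKO KLS cells it had 103.9 and 119.0 against 32.0 and 32.9 (1.75 ± 0.36, limma adjusted p 7.19e-05). Every mutant library was above every Daxx-WT library of its table, and in both KLS tables the mutant values lay about 3-fold above the shared controls. The GATA matches of this member are printed in capitals in the last of the sequences.

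Beside Msrb3, 5 members were listed in all 3 tables. The member nearest 1600014C23Rik on chromosome 17 at 45815078 to 45816404 was higher in each, with log2 differences of 1.08 ± 0.36 (DKO KLS, limma adjusted p 0.029), 0.79 ± 0.29 (Daxx-KO KLS) and 0.85 ± 0.26 (Daxx-KO LT-HSCs at 3 d.p.i.). The member in an intron of Slc25a45 on chromosome 19 at 5881872 to 5882537 was lower in each, with -1.21, -0.66 and -0.65. Those nearest Dio1, Atpif1 and Nt5c2 did not keep one direction. The DKO and Daxx-KO KLS values rest on the same Daxx-WT libraries.

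The other sites at members with the largest differences in Daxx-KO KLS cells were near Egflam and Gm21860 (higher) and Gstz1, Far2 and Tent5c (lower). At Egflam, which encodes an extracellular matrix protein, the Daxx-KO libraries had 48.99, 21.9 and 25.4 scaled reads and the Daxx-WT libraries 10.03 and 5.73 (log2 difference 1.85 ± 0.41). The site nearest Gm21860 lay on the Y chromosome and had 102.4, 252.8 and 182.5 against 36.5 and 76.8 scaled reads (1.64 ± 0.46), and the share of males behind each group was not analysed here. Near Tent5c, which encodes a poly(A) polymerase of plasma cells, the values were 33.4, 30.6 and 35.8 against 86.7 and 92.9 (-1.41 ± 0.28). In 3 d.p.i. LT-HSCs the others were near Clcn5 and Fndc7 (higher) and in Agps, Lamc3 and Itgal (lower). The site in an intron of Clcn5, a chloride transporter gene on the X chromosome, had 32.1, 21 and 32.7 against 7.89 and 12.2 scaled reads (1.42 ± 0.30). That in Itgal, the gene of the leukocyte integrin LFA-1, had 18.4, 9.54 and 22.2 against 33.8 and 40.3 (-1.18 ± 0.35). Groups did not overlap at any of these sites, and none was called by limma. Lymphoid genes with a lower site at a member in Daxx-KO LT-HSCs were Bach2, Prdm1, Id2 and Syk, with log2 differences of -0.77, -0.60, -0.89 and -0.76. Fgd5 of the stem cell list (-0.60) and Fli1 of the megakaryocyte and erythroid list (-0.63) had a lower site as well. None of them was called by limma, and list genes at such sites were not counted over all distal intervals.

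**Figure D5:**
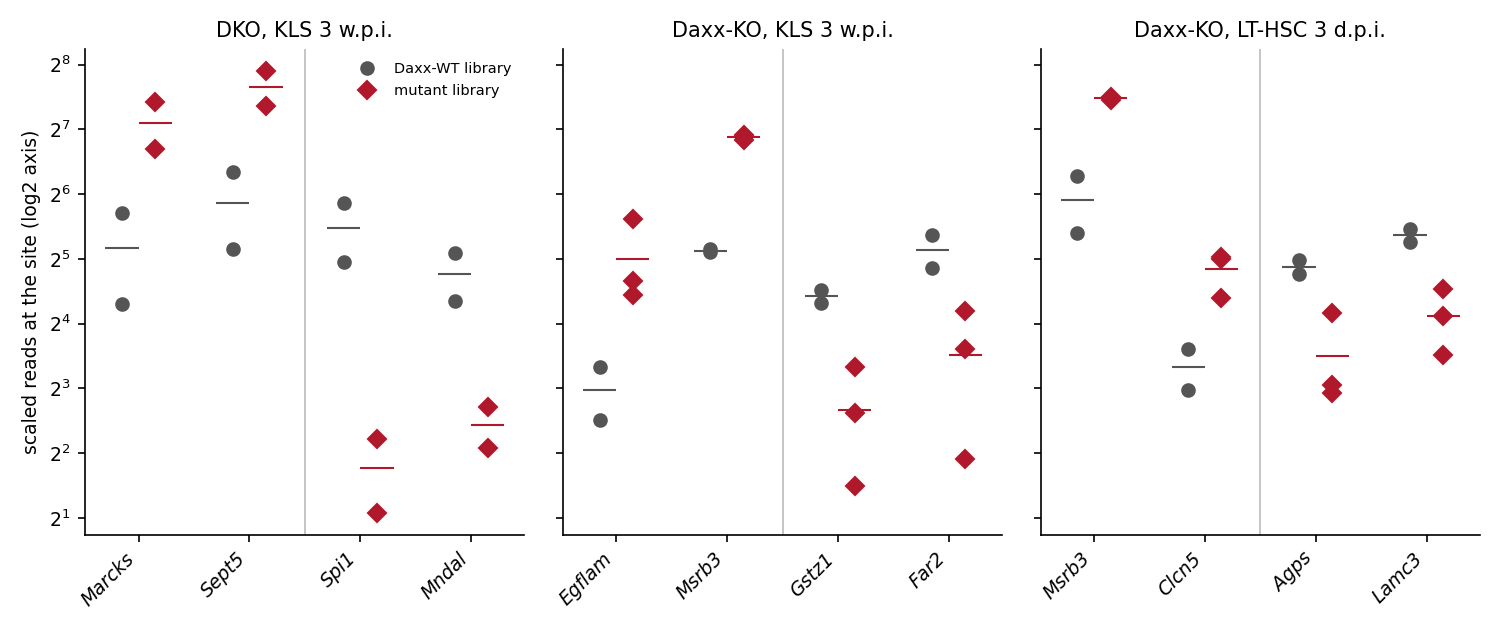
Scaled reads of each library (vertical axis, log2 scale) at the 2 higher and 2 lower sites at members with the largest difference in each table, left and right of the grey line, named by the nearest start site or, for Spi1, by the gene it lies in. Circles are Daxx-WT and diamonds mutant libraries, lines are group means, and the groups are separate at every site shown, with the Spi1 site of DKO cells lowest at 2.12 and 4.68.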

How the data were processed

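ATAC-seq was performed on 24 libraries of sorted mouse bone marrow cells. Per the submitters' processing notes, reads were handled with CASAVA 1.8.4, cutadapt 1.13, STAR 2.5.3 and bedtools on mm10. The authors deposited 11 peak lists, 1 for each group, of which 6 hold positions alone and 5 also give a fold enrichment over background per peak, here used as the authors' fold ratio. The authors' 3 deposited tables of sites (diffReps, windows of 600 bp) give reads divided by a constant for each library, and their columns of group averages, log2 fold change, p-value and adjusted p-value, which hold the authors' comparisons, were not used. Per the file headers, libraries had 4.21 to 16.0 reads per window, and 446463 (DKO KLS), 407030 (Daxx-KO KLS) and 413247 (LT-HSC) windows were tested. No total read number is known, so no depth limit can be given for a list.

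Groups followed the sample titles. All 549003 intervals of the lists lay within the GRCm38 chromosomes. An overlap was at least 1 bp. Start sites and genes came from GENCODE M21, and a member was assigned to the nearest protein-coding start site from its centre. Sequence, GC content and soft-masked repeats came from GRCm38. Sites were tested in each table with limma 3.58.1 (R 4.3.3) on log2(scaled reads + 1), adjusted over all tested windows and, as a second count, over the listed sites alone. The spread that limma borrows across sites was estimated on selected sites. The step was tested on simulated data. Libraries of a group were not stated to be separate mice in the labels, so p-values refer to these libraries and not to mice. For DKO sites they rest on a spread pooled over the listed sites, and not on the spread at each site. Named items were the 10 genes with most members, 5 genes of each gene list with most members, the 10 members in most lists, and the 3 sites with the largest difference per table and direction, of which some are not reported here. The gene named with the Pu.1 deletion, members listed in all 3 tables and the other list genes with a site were chosen after their values were seen. The members, gene lists and motifs were chosen with earlier results of these data known. Alternatives were another distance, overlap, gap to CMP intervals, gene assignment, motif window, pseudocount, filter, scaling, replicate block and omitted library. Python 3.11.15, pandas 2.3.3, SciPy 1.17.1 and pysam 0.24.0 were used.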

Additional observations from a re-analysis of the deposited data

Results flagged for a closer look

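Loss of Daxx gave differences of opposite sign in 3 w.p.i. KLS cells and 3 d.p.i. LT-HSCs at 3 members, with every Daxx-KO library on 1 side of both Daxx-WT libraries in each population. The difference between the populations was not tested, and none of these sites was called by limma. Each table has its own window at these members, so the reads of the 2 populations come from windows that overlap and are not the same. At the member in an intron of Fli1, an Ets factor of megakaryocytes and stem cells, Daxx-KO KLS libraries had 74.6, 89.2 and 88.4 scaled reads and Daxx-WT libraries 52.0 and 45.9 (log2 difference 0.77), whereas LT-HSCs had 75.3, 77.3 and 60.2 against 109.3 and 110.7 (-0.63). At the member in an intron of Nt5c2, a purine nucleotidase gene, KLS libraries had 17.8, 28.0 and 25.4 against 43.8 and 47.0 (-0.93), and LT-HSCs 86.3, 102.1 and 109.8 against 55.2 and 41.3 (1.04). Near Atpif1, which encodes an inhibitor of the mitochondrial ATP synthase, KLS libraries had 60.1, 43.7 and 49.9 against 86.7 and 81.4 (-0.71), and LT-HSCs 191.8, 180.4 and 154.1 against 113.8 and 126.6 (0.54). Cell population and time after induction differ together between these tables and cannot be told apart. The LT-HSCs came from the tamoxifen-inducible line by the methods, and whether the Cre line and its inducer differed as well is not given in the sources used here.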

How the results depend on the processing

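The number of members was 1564 at over 2 kb from a start site, 1831 with start sites of protein-coding genes alone, 1280 with a share of at least 0.5 of the interval overlapped in GMPs and 1606 without a CMP interval within 500 bp. Presence of members in the other lists differed with width. From the narrowest to the widest quartile it was 80.1%, 91.1%, 94.3% and 95.8% in Daxx-KO LT-HSCs, 24.2%, 24.8%, 32.8% and 31.8% in Daxx-KO GMPs, and 23.3% and 30.4% at the ends in Daxx-KO CMPs. It was 12.8%, 21.3%, 35% and 41.9% in the Daxx-WT and 21.2%, 30.7%, 41% and 56.7% in the Daxx-KO list of 3 d.p.i. LT-HSCs. In KLS cells it was 7.66%, 30.8% and 38.1% in the first and the last 2 quartiles of Daxx-WT, 21.5%, 45.3% and 50.9% in those of Daxx-KO, and 4.47%, 5.65%, 11.7% and 13.8% in DKO cells. With a share of at least 0.5 of the interval overlapped, values were 21.1% (Daxx-KO CMP), 20.8% (Daxx-KO GMP), 18.2% (Daxx-WT KLS) and 6.49% (DKO KLS). With only peaks above the median fold enrichment of their list, they were 2.37% and 3.71% in the 3 d.p.i. LT-HSC lists of Daxx-WT and Daxx-KO, and 3.13%, 5.73% and 2.32% in Daxx-WT, Daxx-KO and DKO KLS cells. A stricter threshold was not possible for lists without values.

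Counting every gene within 100 kb gave 1.45% for myeloid and 0.984% for megakaryocyte-erythroid genes, and the nearest gene of any biotype gave 0.579% for lymphoid and 0.174% for stem cell genes. Windows of 100 bp on each side held Pu.1 in 5.91%, GATA in 2.26%, Runx in 7.87%, C/EBP in 9.26%, AP-1 in 8.22%, IRF in 9.79%, EBF in 3.88% and CTCF in 7.18% of members, as shorter windows hold fewer matches. Requiring a share of 0.5 of a member to be covered by a site left 80 at higher DKO sites, 33 at lower Daxx-KO KLS sites, and 15 and 28 at higher and lower LT-HSC sites.

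Adjustment over the listed sites alone and equal mean reads per window were chosen for limma after seeing the data. The former called 136 higher and 225 lower sites at members in DKO cells, 23 and 69 in the Daxx-KO KLS table, and 25 and 53 in that of 3 d.p.i. LT-HSCs. Of all listed DKO sites, the same adjustment called 99.5% of the higher and 94.8% of the lower ones. For the Daxx-KO KLS table the shares were 86.9% (higher) and 98.8% (lower). The LT-HSC table gave 88.3% (higher) and 98.9% (lower). Most listed sites thus passed, and the counts alone do not set members apart. Equal mean reads per window called 0 higher and 226 lower sites at members in DKO cells. Leaving out 1 library at a time gave 0 to 67 higher and 0 to 113 lower sites in DKO cells (0 without either DKO library), and 0 throughout in both Daxx-KO tables. A library left alone in its group was assumed to vary like the others. Pseudocounts of 0.25 and 4 gave 92 and 110 higher and 153 and 190 lower DKO sites. Same-numbered libraries did not deviate together over the listed sites, with correlations of -0.003 in DKO, and 0.008 and 0.052 in Daxx-KO KLS cells. With 2 libraries in each group, as for DKO, both numbers give the same value. These correlations cannot show whether such libraries share more than a number. With the replicate block, 97 higher and 165 lower DKO sites at members were called, and 1 site, that of Egflam (log2 difference 1.97), in Daxx-KO KLS cells. No paired analysis was possible for LT-HSCs at 3 d.p.i. because the table's columns carry no replicate numbers. A count test on reads recovered from the scaled values was planned and not run. Among the named sites, 15 values of DKO sites lost their call under an alternative, 1 value of Daxx-KO cells gained one, and none changed direction. Peak lists without values limit what depth can show.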
